A study of Mus musculus with 45 samples.

Results

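The colony-stimulating factors are secreted proteins that set how many myeloid cells a mouse makes and how long those cells live. The 3 ligand genes Csf1, Csf2 and Csf3 and the 5 receptor genes Csf1r, Csf2ra, Csf2rb, Csf2rb2 and Csf3r were taken by name, as the members of this ligand and receptor family, 8 of the 55367 gene symbols in the deposited counts. The ligands are described first in the primary tumors of each line, and the receptors in the scaffold, lung and spleen.

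RNA was sequenced as 3' tags from 45 tissue samples, 3 in each of 15 groups, all from female Balb/c mice. Tissues were taken 14 days after tumor inoculation, and those of healthy mice at the same time. Tumor-bearing mice had been inoculated with 67NR, 4T07 or 4T1 cells in a mammary fat pad, and control mice were healthy and carried no tumor; every mouse, controls included, carried a porous polycaprolactone scaffold under the skin, an implant that serves as an accessible stand-in for a metastatic site. The 3 cell lines come from a single mouse mammary tumor and differ in spread: 67NR is nonmetastatic, 4T07 leaves the primary tumor without forming large metastases, and 4T1 forms metastases. Scaffold, lung and spleen were collected in control, 67NR, 4T07 and 4T1 mice, and the primary tumor in the 67NR, 4T07 and 4T1 mice, so that the tumors have no control group and each line stands for 1 cell line only.

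CSF1, also called M-CSF, acts through the receptor tyrosine kinase CSF1R on monocytes and macrophages, and CSF1R also binds interleukin 34. CSF2, or GM-CSF, binds an alpha chain encoded by Csf2ra and signals through a common beta chain encoded by Csf2rb, which the interleukin 3 and interleukin 5 receptors share. Mice carry a close copy of that beta chain gene, Csf2rb2, whose product serves interleukin 3. CSF3, or G-CSF, acts through the single-chain receptor CSF3R on neutrophils and their precursors and drives their release from the marrow.

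The 45 libraries held between 3491888 and 8175380 counts (median 5149589), and levels are given as CPM, the counts of a gene scaled to 1000000 counts of its library. A count of 3, the floor used here, corresponded to 0.367 to 0.859 CPM depending on the library. A gene passed the test where the edgeR adjusted p was under 0.05 in tumors or under 0.1 in the other tissues and the fold change was over 2. The libraries showed the markers of their labelled tissues: summed lung epithelial markers lay at 10518 CPM or above in the mean of every lung group and at 202 CPM or below in the mean of every other group. The 4T07 lungs stood apart from the other lungs in those same markers, with 10518 CPM against group means of 31741 to 35971. They also did so in endothelial markers, with 915 against 2441 to 2740, and in erythroid markers, with 78875 against 21383 to 30808. B cell markers averaged 303 CPM in 4T07 lungs, against 53.5 to 86.0 in the other lung groups and 302 in 4T07 spleens. Macrophage markers averaged 759 against 391 to 406, while NK cell markers, with 30.4 against 29.0 to 39.7, did not stand apart. The part of these differences in the lung values was not tested. Tissues are bulk samples, so that fewer cells of a type and less RNA per cell cannot be told apart. The labels do not state that the samples of a group came from separate animals, and p-values measure only the spread between these samples.

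Csf3 separated the tumors of the 3 lines. The 67NR tumors held 0 counts of Csf3 in each of 3 libraries. The 4T07 tumors held 3.01, 7.98 and 8.47 CPM, and the 4T1 tumors 16.3, 18.9 and 17.9 CPM. The 3 groups did not overlap, and the lowest 4T1 tumor lay above the highest 4T07 tumor. Against the floor of 0.830 CPM in the 67NR tumors, mean Csf3 of the 4T07 tumors was at least 7.81-fold higher (adjusted p = 4.21e-05), and that of the 4T1 tumors at least 21.3-fold higher (adjusted p = 2.49e-06). Between the lines with counts, 4T1 exceeded 4T07 tumors by 1.50 on the log2 scale (SE 0.34, adjusted p = 0.0102). Outside the tumors, no library held more than 2 counts of Csf3, and the gene could not be tested in scaffolds, lungs or spleens.

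Csf1, the macrophage growth factor, was present in every tumor. The mean ± SD of 3 tumors was 63.8 ± 5.32 CPM for 67NR, 60.7 ± 7.95 for 4T07 and 83.2 ± 9.15 for 4T1. The 4T1 tumors held 72.8, 87.1 and 89.8 CPM and did not overlap in CPM with either other line, whereas 67NR and 4T07 tumors overlapped. The highest 67NR tumor came close, at 69.4 CPM before the further scaling used in the tests. None of the 3 comparisons passed the test: the log2 change of 4T1 against 4T07 was 0.50 (SE 0.17, adjusted p = 0.0521), that of 4T1 against 67NR 0.18 (SE 0.17, adjusted p = 0.436), and that of 4T07 against 67NR -0.32 (SE 0.17, adjusted p = 0.134).

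Csf2 was at the edge of detection in all 45 libraries. The 4T1 tumors held 5, 2 and 0 counts, and the 67NR and 4T07 tumors 0 in every library, so that the 5 counts of 1 tumor were the most in any library. The gene had too few counts to be tested in tumors, scaffolds and spleens. In lungs it was tested and passed in no comparison, with 0 to 3 counts per library.

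**Figure D1:**
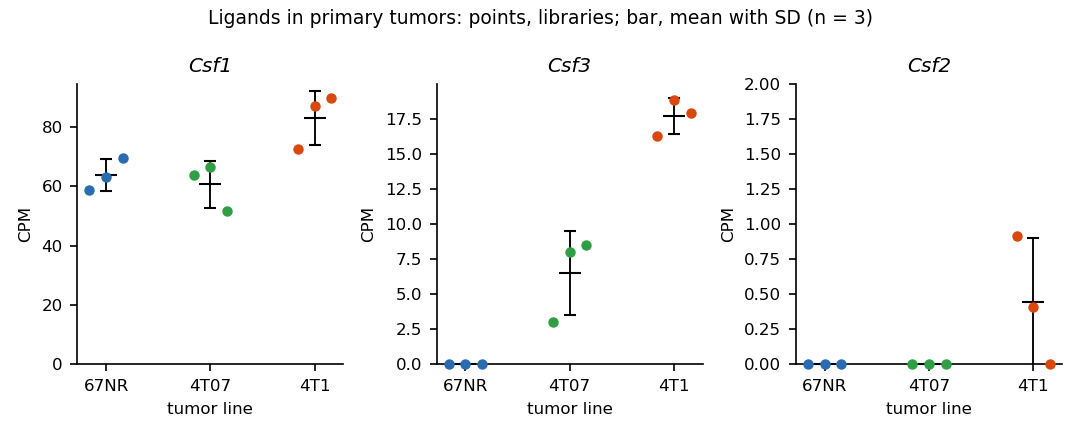
CPM of the 3 ligand genes in the primary tumors of 67NR, 4T07 and 4T1 (y axes differ and start at 0; points are libraries, bars the mean with SD, n = 3). Csf3 rises from 0 counts in 67NR tumors to 6.49 ± 3.02 CPM (4T07) and 17.7 ± 1.31 CPM (4T1), Csf1 lies between 51.7 and 89.8 CPM, and Csf2 stays under 1 CPM, with its SD bar cut at 0.

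Among the receptors in the tumors, only Csf1r passed the test, and in 1 comparison. Csf1r was 386, 313 and 260 CPM in the 67NR tumors, 154, 98.9 and 125 CPM in the 4T07 tumors, and 201, 229 and 169 CPM in the 4T1 tumors. The 67NR tumors were the highest and overlapped with neither other line. It was lower in 4T07 than in 67NR tumors by 1.59 on the log2 scale (log2 change -1.59, SE 0.20, adjusted p = 1.49e-05). The change of 4T1 against 67NR tumors was -0.88 (SE 0.19, adjusted p = 0.00254), which stayed under the fold threshold, as did that of 4T1 against 4T07 tumors, 0.71 (SE 0.19, adjusted p = 0.0212). Without replicate 3 of the 67NR tumors, the change of Csf1r in 4T1 against 67NR tumors passed at -1.03. Summed macrophage markers stood at 2400 CPM (67NR), 2842 CPM (4T07) and 2016 CPM (4T1). Of 9 markers, 1 rose and 2 fell in 4T07 and likewise in 4T1 against 67NR tumors, and the median log2 change of the list was -0.29 and -0.56, beside 0.16 and 0.09 over all genes. Csf1r amounted to 13.2% of the summed macrophage markers in the 67NR tumors, 4.41% for 4T07 and 9.86% for 4T1, with ranges that did not overlap between the lines. Csf2ra, Csf2rb, Csf2rb2 and Csf3r passed in no tumor comparison.

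In all, 2 of the 8 members passed between 4T07 and 67NR tumors, 1 between 4T1 and 67NR tumors and 1 between 4T1 and 4T07 tumors. Of the 20508 genes tested, 28.9%, 20.7% and 8.61% passed in the same comparisons. The members' shares therefore stayed close to the background, and the values of the single genes carry the description.

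Cytokines and transcription factor genes known to act upstream of the ligands were followed with a list of 13 genes, of which 12 could be tested in tumors. In 4T07 against 67NR tumors, 5 rose and 1 fell (median log2 change 0.48, beside 0.16 over all genes), and in 4T1 against 67NR tumors 4 rose and 1 fell (median -0.29, beside 0.09). Of all genes, 28.9% and 20.7% passed in these comparisons. Il6 and Il1a, which encode inflammatory cytokines, were at or under 1 count in each 67NR tumor and at least 5.63-fold and 3.35-fold higher in 4T07 tumors. In 4T1 tumors, Il1a was at least 4.46-fold and Il6 at least 4.38-fold higher than in 67NR tumors. Il1b, named here after its values were seen, rose by 2.54 (SE 0.24, adjusted p = 1.10e-06) with 4T07 and by 3.12 (SE 0.24, adjusted p = 1.47e-07) with 4T1. Nfkb2, a subunit of the NF-kB transcription factor, fell in 4T07 tumors (log2 change -1.53, adjusted p = 3.86e-06), and Jun, an AP-1 subunit, in 4T1 tumors (-1.05, adjusted p = 2.83e-04). Between 4T1 and 4T07 tumors, where Csf3 passed, edgeR called 0 of the 12 genes, 5 of which had an unadjusted p under 0.05. Outside the tumors, Il1b also rose in 4T1 against control lungs (3.30, adjusted p = 4.19e-10) and spleens (2.33, adjusted p = 7.90e-08). In 4T07 against control spleens, edgeR called 0 of the 10 genes of the list that were tested, with 2 at an unadjusted p under 0.05.

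Of the related cytokines and receptors, Il34, which encodes the other ligand of CSF1R, was highest in the 67NR tumors, where Csf1r was highest too. Its mean level was 65.6 CPM in the 67NR tumors, 27.8 with 4T07 and 33.6 with 4T1, and it was lower in 4T07 (log2 change -1.49, SE 0.18, adjusted p = 1.44e-05) and in 4T1 (-1.16, SE 0.18, adjusted p = 1.49e-04) than in 67NR tumors. Kitl, the ligand of the stem cell factor receptor Kit, was lower in both as well, by -1.74 (adjusted p = 6.33e-06) and -2.17 (adjusted p = 9.1e-07) on the log2 scale. In 4T07 against 67NR tumors, 4 genes of this list of 9 rose and 2 fell, where 28.9% of all genes passed. The largest rises were those of Il5ra, which was at least 4.13-fold higher, and Il3ra, with a log2 change of 2.15 (SE 0.32, adjusted p = 7.61e-05). Il3ra and Il5ra encode alpha chains that pair with the product of Csf2rb.

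In the other tissues, Csf1 was the one ligand with a measurable level. The control spleens held 36.1, 37.2 and 32.6 CPM, the 67NR spleens 41.5, 28.1 and 28.7, the 4T07 spleens 17.9, 14.7 and 12.6, and the 4T1 spleens 14.1, 24.5 and 16.2 CPM. All 6 libraries of 4T07 and 4T1 spleens lay below all 6 of control and 67NR spleens. Csf1 fell in 4T07 against control spleens (log2 change -1.05, SE 0.22, adjusted p = 0.00236), although without replicate 3 of the 4T07 spleens the change was -0.97 and under the fold threshold. In 4T1 against control spleens the change was -0.70 (SE 0.22, adjusted p = 0.0265), under the fold threshold.

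In lungs, mean Csf1 was lowest in the controls, at 12.4, 15.9 and 15.2 CPM, and passed in no comparison. The log2 change against control was 0.55 (adjusted p = 0.0727) in 67NR, 0.51 (adjusted p = 0.0334) in 4T07 and 0.26 (adjusted p = 0.475) in 4T1 lungs, all under the fold threshold. Scaffolds held the widest spread of Csf1, from 34.2 CPM in 1 control to 148 CPM in replicate 2 of the 4T1 scaffolds, and none of the 6 comparisons passed. In the order of the 15 group means, 4T1 scaffolds (85.2 CPM) and 4T1 tumors (83.2 CPM) came first and control lungs (14.5 CPM) last. The ranges of neighbors in that order overlapped in 12 of 14 pairs; the exceptions were 4T1 tumors against 67NR scaffolds, and 67NR spleens against 67NR lungs.

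The promoters of 5 of the 8 members were found in the table used here, those of Csf1, Csf2, Csf2ra, Csf2rb2 and Csf3r. The 3 receptor promoters are shown because these genes moved together in the 4T1 spleens, as given further on. Each runs from 250 bases before to 50 bases after the annotated start, 5′ to 3′ on the strand of the gene, from RefSeq on GRCm38.p6. Csf3r lies at chr4:126024409-126024708 on the plus strand, Csf2ra at chr19:61228369-61228668 on the minus strand and Csf2rb2 at chr15:78305672-78305971 on the minus strand. Capitals mark GAGGAA or its reverse complement TTCCTC, the core bound by PU.1, an ETS factor of myeloid cells.
Csf3r: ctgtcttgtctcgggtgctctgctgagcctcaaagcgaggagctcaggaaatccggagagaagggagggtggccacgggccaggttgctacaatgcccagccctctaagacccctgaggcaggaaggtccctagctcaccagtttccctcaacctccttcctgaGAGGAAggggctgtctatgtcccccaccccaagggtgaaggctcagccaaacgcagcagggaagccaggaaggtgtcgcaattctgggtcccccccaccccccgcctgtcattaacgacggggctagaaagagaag
Csf2ra: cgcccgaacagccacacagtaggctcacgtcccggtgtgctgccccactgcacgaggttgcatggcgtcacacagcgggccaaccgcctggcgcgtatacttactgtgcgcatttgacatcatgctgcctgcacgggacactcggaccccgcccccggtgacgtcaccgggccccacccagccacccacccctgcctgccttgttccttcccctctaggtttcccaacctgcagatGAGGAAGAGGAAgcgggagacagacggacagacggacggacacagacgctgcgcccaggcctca
Csf2rb2: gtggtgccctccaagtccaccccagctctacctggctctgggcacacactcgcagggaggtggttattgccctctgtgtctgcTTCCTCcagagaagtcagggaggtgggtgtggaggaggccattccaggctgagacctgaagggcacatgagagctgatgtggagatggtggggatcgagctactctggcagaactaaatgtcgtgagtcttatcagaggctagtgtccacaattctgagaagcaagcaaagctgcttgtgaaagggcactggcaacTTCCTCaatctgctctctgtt

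GAGGAA occurred 1 time in the Csf3r window, from -86 to -81 with the first transcribed base counted as 0, 2 times in the Csf2ra window, from -14 to -9 and from -8 to -3, and 2 times in the Csf2rb2 window, from -167 to -162 and from 29 to 34. It was present in neither of the ligand windows searched, those of Csf1 and Csf2, and in 28.3% of all 32851 windows of the same length. The ligand windows held other matches on either strand: an NF-kB match from -154 to -145 in Csf1, a motif present in 4.51% of windows, and a C/EBP match (TTGCNNAA) from -145 to -138 in Csf2, present in 10.8%. The STAT motif TTCNNNGAA, present in 8.30% of windows, was matched in the Csf2rb2 window alone among the 5, and the AP-1 motif TGANTCA, present in 7.81%, in none. These are matches of letters, and no binding was measured.

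Csf3r had the largest changes of the 8 members in 4T07 and 4T1 against control, in lung and in spleen. Control lungs held 1.92, 2.88 and 2.10 CPM, 67NR lungs 3.64, 5.20 and 5.06, 4T07 lungs 20.1, 31.4 and 28.4, and 4T1 lungs 60.5, 87.4 and 35.2 CPM. The 4 groups did not overlap and stood in the order control, 67NR, 4T07 and 4T1. Against control lungs, Csf3r was 12.1-fold higher in 4T07 (log2 change 3.59, SE 0.33, adjusted p = 2.99e-08) and 26.6-fold higher in 4T1 lungs (4.73, SE 0.32, adjusted p = 3.61e-09). The 67NR lungs did not pass against control (0.92, SE 0.40, adjusted p = 0.169). The 4T1 lungs exceeded the 4T07 lungs by 1.14 (SE 0.24, adjusted p = 7.36e-04), and this change dropped under the fold threshold without replicate 1 of the 4T07 lungs (0.95, adjusted p = 0.0120) or without replicate 2 of the 4T1 lungs (0.77, adjusted p = 0.0134).

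In spleens, Csf3r passed in all 6 comparisons. Control spleens held 2.91, 3.00 and 3.45 CPM, 67NR spleens 8.79, 7.41 and 8.07, 4T07 spleens 17.3, 13.8 and 11.5, and 4T1 spleens 45.8, 48.5 and 47.1 CPM. The order of the groups was that of the lungs, again without overlap, and here the 67NR spleens also passed against control (log2 change 1.28, SE 0.23, adjusted p = 0.0126). The 4T07 spleens were 5.10-fold above control (2.35, SE 0.22, adjusted p = 1.77e-06), the 4T1 spleens 17.9-fold above control (4.16, SE 0.21, adjusted p = 7.58e-09) and 3.51-fold above 4T07 (1.81, SE 0.18, adjusted p = 3.35e-05). The change of 4T07 against 67NR spleens, 1.07 (SE 0.20, adjusted p = 0.00113), was the smallest of the 6 and dropped to 0.81 when libraries were scaled by their totals alone and to 0.95 without replicate 1 of the 4T07 spleens.

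Scaffolds and tumors showed no such order. Csf3r was 3.57, 13.8 and 4.09 CPM in control scaffolds, 9.79, 8.51 and 7.86 in 67NR, 6.36, 4.91 and 8.54 in 4T07, and 8.16, 18.3 and 11.1 CPM in 4T1 scaffolds. All scaffold groups overlapped with the controls, and the change of 4T1 against 4T07 scaffolds was 0.93 (SE 0.40, adjusted p = 0.285). Tumors held 3.67 to 10.2 CPM, and the 3 lines overlapped. Over the 15 groups, 4T1 lungs (61.1 ± 26.1 CPM) and 4T1 spleens (47.1 ± 1.35 CPM) were highest and overlapped with each other, followed without overlap by 4T07 lungs (26.6 ± 5.84) and then 4T07 spleens (14.2 ± 2.94).

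The markers of mature neutrophils, the cells that carry CSF3R, rose with Csf3r in the lungs and spleens of 4T07 and 4T1 mice, and not in every other group. All 8 markers rose in 4T07 and in 4T1 against control lungs, where 29% and 4.61% of all genes passed. All 8 also rose in 4T07 and in 4T1 against control spleens, where 18.6% and 19.9% passed, and none of the markers was at 0 in any group. Their summed level ranged from 234 to 308 CPM in control lungs, 238 to 286 in 67NR, 21021 to 24743 in 4T07 and 11617 to 27327 CPM in 4T1 lungs. In spleens the ranges were 967 to 1660 CPM in control, 939 to 1195 in 67NR, 20629 to 25992 in 4T07 and 11448 to 28822 in 4T1. The 4T07 and 4T1 ranges overlapped in both tissues, while their Csf3r levels did not. In 67NR spleens, where Csf3r passed, the marker mean was 1052 CPM against 1274 in control, and edgeR called 0 of the 8 markers higher and 1 lower. In 4T07 scaffolds the marker mean was 4727 CPM against 1404 in control, with 5 markers higher and 1 lower, where 7.44% of all genes passed. All 8 markers rose in 4T07 against 67NR tumors, where 28.9% of all genes passed, while Csf3r passed in neither comparison.

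As a share of those summed markers, Csf3r was 0.115% in 4T07 and 0.293% in 4T1 lungs, beside 0.853% in control and 1.77% in 67NR lungs. In spleens it was 0.0608% in 4T07 and 0.253% in 4T1, beside 0.260% in control and 0.782% in 67NR. The 4T07 and 4T1 shares did not overlap in either tissue: the highest 4T07 spleen reached 0.0713%, and the lowest 4T1 spleen 0.159%. Markers of immature neutrophils, such as the granule genes Elane, Mpo and Ltf, stood at 5364 CPM in 4T07 lungs and 1065 in 4T1 lungs, and at 8109 in 4T07 and 5974 in 4T1 spleens. All 8 immature markers were lower in 4T1 than in 4T07 lungs, where 23.5% of all genes passed. In that comparison of spleens, where 2.33% of all genes passed, edgeR called none of these markers, and 5 had an unadjusted p under 0.05. The part of these cells in the Csf3r values was not tested.

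**Figure D2:**
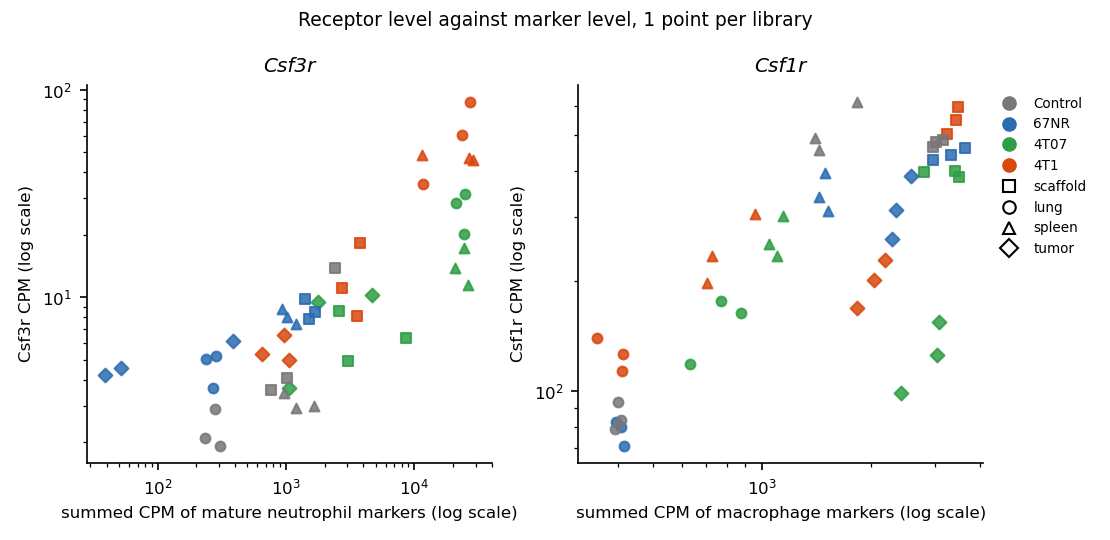
Csf3r CPM against the summed CPM of 8 mature neutrophil markers (left) and Csf1r CPM against the summed CPM of 9 macrophage markers (right), log axes, 1 point per library, colored by line and shaped by tissue. The 4T1 lungs and spleens (35.2 to 87.4 CPM of Csf3r, 11448 to 28822 CPM of markers) lie above the 4T07 lungs and spleens (11.5 to 31.4 CPM of Csf3r, 20629 to 25992 CPM of markers); 4T07 tumors lie below the other tumors in Csf1r.

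The GM-CSF receptor chains rose in the same tissues, with smaller changes. Csf2ra, the alpha chain, was 34.5, 29.4 and 44.0 CPM in control lungs, 35.4, 37.2 and 34.1 in 67NR, 124, 119 and 81.1 in 4T07, and 81.0, 112 and 63.6 CPM in 4T1 lungs. Control and 67NR lungs overlapped, and both lay below every 4T07 and 4T1 lung. The log2 change against control was 1.65 (SE 0.20, adjusted p = 1.01e-06) in 4T07 and 1.26 (SE 0.20, adjusted p = 2.59e-04) in 4T1 lungs. Between 4T1 and 4T07 lungs it was -0.39 (SE 0.19, adjusted p = 0.118), with overlapping values.

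Markers of monocytes and eosinophils rose in the same lungs and spleens as the GM-CSF receptor chains, whereas those of some other myeloid cells were lower in part of these groups. Of 4 monocyte markers, 3 rose in 4T07 and in 4T1 against control lungs, where 29% and 4.61% of all genes passed. The monocyte sum ranged from 212 to 245 CPM in control, 772 to 884 in 4T07 and 381 to 644 in 4T1 lungs. All 4 eosinophil markers rose in both of these comparisons. Their sum went from 1.78 to 4.18 CPM in control lungs to 812 to 1162 in 4T07 and 28.8 to 59.2 in 4T1 lungs. In spleens, 1 monocyte marker rose in 4T07 and 3 in 4T1 against control, where 18.6% and 19.9% of all genes passed. Eosinophil markers in spleens ranged from 140 to 188 CPM in control, 1361 to 1898 in 4T07 and 427 to 1175 in 4T1. No monocyte or eosinophil marker was at 0 in these groups. Summed alveolar macrophage markers averaged 462 CPM in control, 262 in 4T07 and 380 in 4T1 lungs. The 4T1 lungs (330 to 442 CPM) overlapped with the controls (415 to 507 CPM). In spleens, which hold no alveoli, the same genes name no cell type. Their sum there averaged 437 CPM in control, 176 in 4T07 and 183 in 4T1. Summed dendritic cell markers averaged 203 CPM in control, 90.9 in 4T07 and 98.8 in 4T1 spleens. In lungs they averaged 116 CPM in control, 104 in 4T07 and 117 in 4T1. There edgeR called 0 of the 6 markers in either line against control, with 3 (4T07) and 2 (4T1) at an unadjusted p under 0.05. The part of all these cells in the receptor values was not tested.

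In spleens, Csf2ra was 48.4 ± 3.76 CPM in control, 63.0 ± 10.4 in 67NR, 113 ± 31.0 in 4T07 and 105 ± 7.39 in 4T1. Every 4T07 and 4T1 spleen, from 78.5 CPM up, lay above every control and 67NR spleen, up to 73.6 CPM. The changes against control were 1.39 (SE 0.20, adjusted p = 1.11e-04) in 4T07 and 1.37 (SE 0.20, adjusted p = 1.03e-04) in 4T1 spleens. Against 67NR spleens they were 1.11 and 1.09, and both dropped under the fold threshold with library totals as the only scaling (0.84 and 0.74) and without replicate 3 of the 67NR spleens (0.99 and 0.97). The change of Csf2ra in 4T07 also did so without replicate 2 of the 4T07 spleens (0.90).

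Csf2ra was also the single member that passed in scaffolds. The 67NR scaffolds held 143, 171 and 168 CPM, the 4T07 scaffolds 337, 395 and 354, the 4T1 scaffolds 369, 201 and 363, and the control scaffolds 110, 225 and 273 CPM. The 4T07 scaffolds exceeded the 67NR scaffolds by 1.11 on the log2 scale (SE 0.27, adjusted p = 0.0183) and lay above all controls, with a change of 0.72 (SE 0.27, adjusted p = 0.0986) that stayed under the fold threshold. The 4T1 scaffolds did not overlap with 67NR either (0.93, SE 0.27, adjusted p = 0.276). Replicate 1 of the controls and replicate 2 of the 4T1 scaffolds were the lowest of their groups in Csf2ra, Csf2rb and Csf2rb2.

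Csf2rb, the common beta chain, rose with Csf2ra against control in 4T1 lungs and in the spleens of 4T07 and 4T1 mice, and fell in 67NR lungs. Control lungs held 27.5, 30.5 and 28.2 CPM, 67NR lungs 13.8, 17.5 and 11.1, 4T07 lungs 50.2, 62.6 and 34.7, and 4T1 lungs 80.5, 99.3 and 42.9 CPM. The 67NR lungs were below all controls, and the 4T07 and 4T1 lungs above all controls. The log2 change against control was -1.12 (SE 0.27, adjusted p = 0.0135) in 67NR, 0.84 (SE 0.25, adjusted p = 0.00952), under the fold threshold, in 4T07, and 1.38 (SE 0.25, adjusted p = 9.94e-04) in 4T1 lungs. Without replicate 3 of the 67NR lungs, the fall in 67NR was -0.96 (adjusted p = 0.102), and without replicate 3 of the 4T07 lungs the change of Csf2rb in 4T07 passed at 1.05. Of 9 alveolar macrophage markers, 3 also fell and 0 rose in 67NR against control lungs, where 4.25% of all genes passed. The median log2 change of these markers was -0.93, beside 0.03 over all genes. Their sum ranged from 415 to 507 CPM in control and 378 to 490 in 67NR lungs, none was at 0, and their part in the fall of Csf2rb was not tested.

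In spleens, Csf2rb was 23.2 ± 1.36 CPM in control, 24.0 ± 4.33 in 67NR, 58.5 ± 9.66 in 4T07 and 75.9 ± 8.68 in 4T1. Control and 67NR spleens overlapped, and the 4T1 spleens lay above all 4T07 spleens. The changes against control were 1.51 (SE 0.20, adjusted p = 4.22e-05) in 4T07 and 1.97 (SE 0.20, adjusted p = 2.81e-06) in 4T1 spleens, and that of 4T1 against 4T07, 0.46 (SE 0.19, adjusted p = 0.239), did not pass. In scaffolds, group means lay between 89.4 and 105 CPM, all groups overlapped, and the largest log2 change in size was 0.10.

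Csf2rb2, the beta chain copy that serves interleukin 3, passed in fewer comparisons. In spleens it was 6.02, 7.61 and 8.19 CPM in control, 4.40, 6.13 and 5.83 in 67NR, 8.65, 8.63 and 9.16 in 4T07, and 19.2, 10.5 and 14.6 CPM in 4T1. The 4T1 spleens were above all other spleens, with changes of 1.28 (SE 0.25, adjusted p = 0.00109) against control, 1.80 (SE 0.26, adjusted p = 9.98e-05) against 67NR and 0.83 (SE 0.25, adjusted p = 0.0902), under the fold threshold, against 4T07. In lungs, it was 9.69 ± 1.97 CPM in control and 5.24 ± 0.478 in 67NR, and the 67NR lungs lay just short of the fold threshold at -0.99 (SE 0.25, adjusted p = 0.0190), a change that DESeq2 called (-1.01, adjusted p = 0.00956). From that low level, 4T07 and 4T1 lungs rose by 1.12 (adjusted p = 0.00118) and 1.32 (adjusted p = 0.00136) against 67NR, and by 0.13 and 0.33, which did not pass, against control. The change of Csf2rb2 in 4T07 against 67NR lungs fell short without replicate 2 of the 4T07 lungs (0.99) and with library totals as the only scaling (0.95).

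Reads of Csf2rb and Csf2rb2 can be assigned to the wrong copy, so that their separate levels are uncertain. The counts assigned to Csf2rb2 made up 32.6% to 35.0% of both genes in the 4 scaffold groups and 13.3% to 27.6% in the lung, spleen and tumor groups. Within lungs the share was 25.1% ± 3.98 in control and 14.8% ± 4.48 in 4T1, and within spleens 23.9% ± 3.88 and 16.1% ± 2.48. The ranges of control and 4T1 did not overlap in either tissue. With both genes added up as 1, every comparison in which Csf2rb passed still passed.

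**Figure D3:**
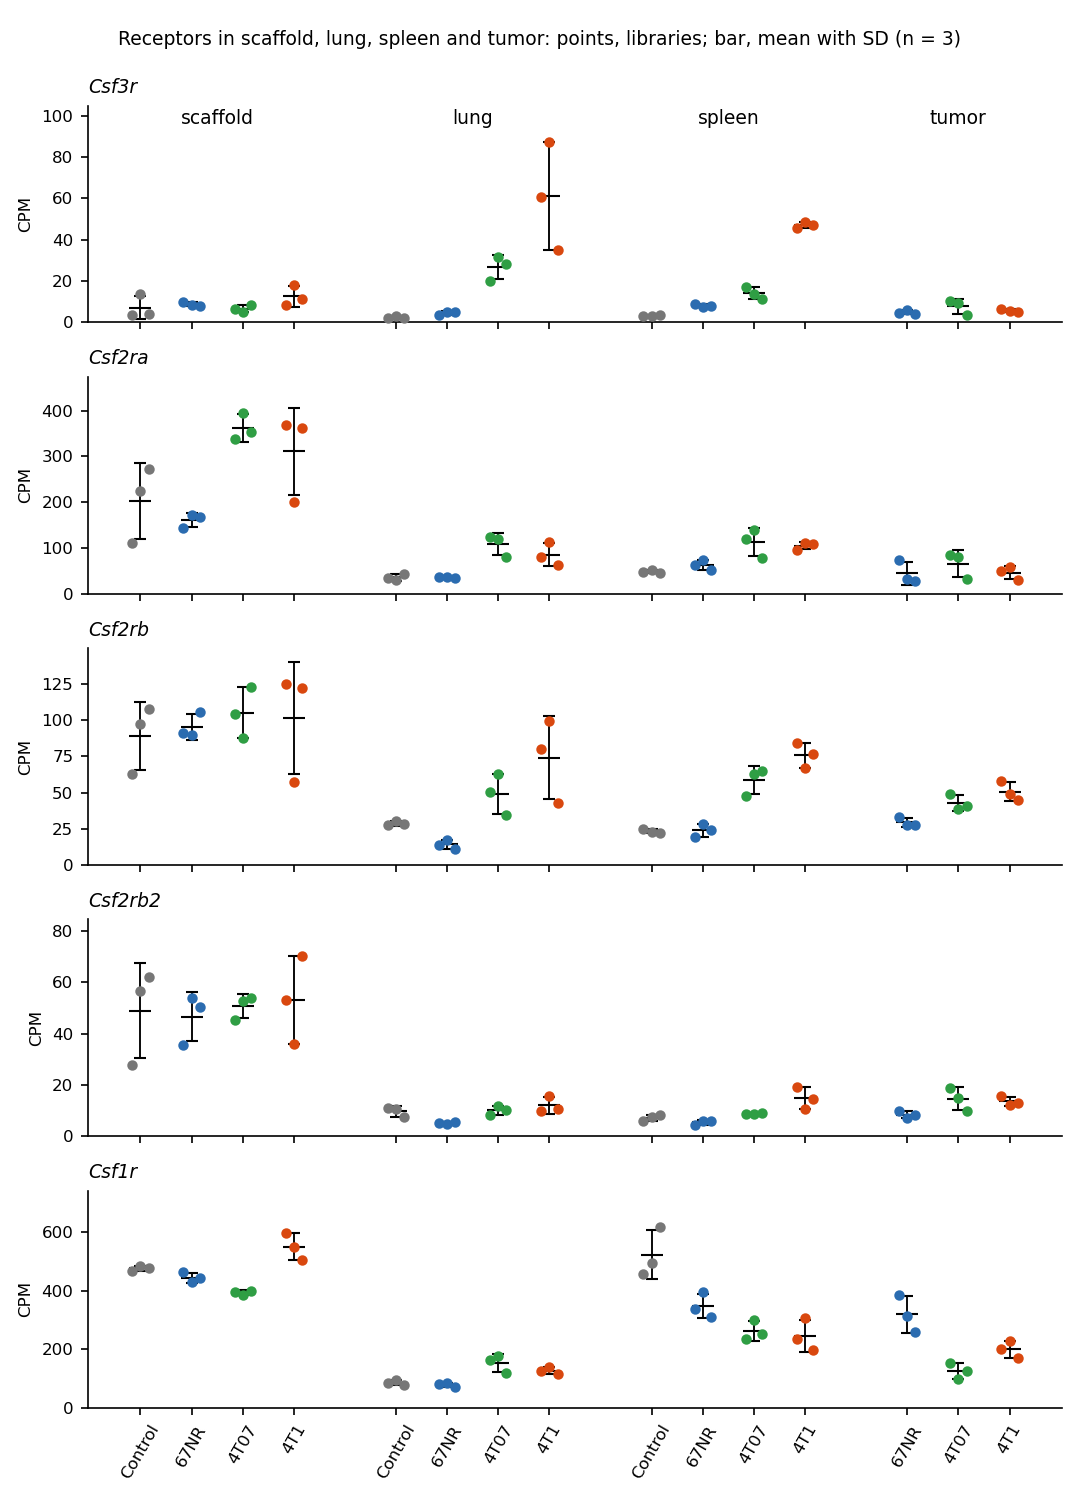
CPM of the 5 receptor genes in scaffold, lung, spleen and tumor for each condition (points are libraries, bars the mean with SD, n = 3; y axes start at 0). Csf3r rises from control to 4T1 in lung and spleen and not in scaffold, Csf2ra and Csf2rb are higher in 4T07 and 4T1 spleens than in control and 67NR spleens, and Csf1r is lower in tumor-bearing than in control spleens.

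Csf1r, which marks monocytes and macrophages, lay above control in 4T07 and 4T1 lungs and below control in the spleens of the same lines. Control lungs held 83.2, 93.6 and 79.0 CPM, 67NR lungs 79.7, 82.5 and 70.7, 4T07 lungs 164, 176 and 118, and 4T1 lungs 126, 139 and 114 CPM. Every 4T07 and 4T1 lung lay above every control and 67NR lung. The log2 change passed in 4T07 against 67NR lungs (1.15, SE 0.15, adjusted p = 4.44e-06) and stayed under the fold threshold against control, at 0.91 (SE 0.15, adjusted p = 6.14e-05) in 4T07 and 0.58 (SE 0.15, adjusted p = 0.0224) in 4T1. With library totals as the only scaling, the change of 4T07 against 67NR lungs was 0.98, and without replicate 3 of the 4T07 lungs the change of Csf1r against control passed at 1.08. The summed macrophage markers were 400 CPM in control, 406 in 67NR, 759 in 4T07 and 391 in 4T1 lungs. Of the 9 markers, 3 rose in 4T07 against control lungs, where 29% of all genes passed. In 4T1 against control lungs edgeR called 0, with 1 at an unadjusted p under 0.05. Csf1r was 21.3% of those markers in control and 32.7% in 4T1 lungs, without overlap.

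In spleens, the controls were highest. Control spleens held 457, 493 and 618 CPM of Csf1r, 67NR spleens 338, 394 and 311, 4T07 spleens 234, 300 and 253, and 4T1 spleens 234, 305 and 198 CPM. The controls lay above every spleen of tumor-bearing mice. The changes against control were -0.68 (SE 0.19, adjusted p = 0.0599) in 67NR, -0.81 (SE 0.19, adjusted p = 0.00461) in 4T07 and -0.84 (SE 0.19, adjusted p = 0.00333) in 4T1, each past the adjusted p and under the fold threshold. With library totals as the only scaling, the change in 4T1 spleens was -1.09 and passed both. Summed macrophage markers were 1558 CPM in control, 1481 in 67NR, 1097 in 4T07 and 795 in 4T1 spleens. Of the 9 markers, 3 fell in 4T1 against control spleens, where 19.9% of all genes passed. The part of macrophage number in the Csf1r values was not tested.

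In scaffolds, Csf1r was tightly grouped: 465, 484 and 478 CPM in control, 462, 429 and 442 in 67NR, 396, 385 and 400 in 4T07, and 596, 550 and 505 CPM in 4T1. In CPM, no scaffold group overlapped with another, although the lowest control (465) and the highest 67NR scaffold (462) nearly met. The edgeR tests scale further between libraries. By them the changes against control were small, from -0.42 (SE 0.14, adjusted p = 0.0674) in 4T07 to 0.10 (SE 0.14, adjusted p = 0.833) in 4T1, and none passed. The largest change between scaffold groups was that of 4T1 against 4T07, 0.51 (SE 0.14, adjusted p = 0.103), which did not pass either. Over the 15 groups, 4T1 scaffolds (550 ± 45.6 CPM) and control spleens (523 ± 84.3 CPM) came first, with overlapping values, and 67NR lungs (77.6 ± 6.14 CPM) last.

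Across the 8 members, the calls gathered in lungs and spleens. In lungs, 1 member passed in 67NR, 2 in 4T07 and 3 in 4T1 against control, 5 in 4T07 and 4 in 4T1 against 67NR, and 1 in 4T1 against 4T07, where 4.25%, 29%, 4.61%, 29.7%, 5.03% and 23.5% of the 21937 genes tested passed. The 2 of 8 in 4T07 against control lungs and the 1 of 8 in 4T1 against 4T07 lungs were no more than the background. In the comparisons of 4T1 with control and 67NR lungs, the members' shares stood well above it. Of the 16 member calls in lungs, 8 involved no 4T07 lung, and all 8 passed again in a fit without the 4T07 lungs.

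In spleens, 1 member passed in 67NR, 4 in 4T07 and 4 in 4T1 against control, 3 in 4T07 and 4 in 4T1 against 67NR, and 1 in 4T1 against 4T07. The background over 21128 genes was 2.26%, 18.6%, 19.9%, 14.7%, 20.7% and 2.33%. In each of these 6 comparisons, which share groups, the share of the 8 members that passed was above the background, with 6 members tested. In 67NR against control and in 4T1 against 4T07 spleens, that share was the single gene Csf3r. In scaffolds, 1 member passed, in 4T07 against 67NR, where the background was 5.85% of 22156 genes. The other 5 scaffold comparisons gave 0 member calls by edgeR and 0 by DESeq2, with 0 members at an unadjusted p under 0.05 in 67NR against control, 2 in 4T07 against control, 0 in 4T1 against control, 1 in 4T1 against 67NR and 2 in 4T1 against 4T07. Their backgrounds were 0%, 7.44%, 0.0226%, 0.0226% and 1% of genes; for 67NR against control, 626 genes had an unadjusted p under 0.05 and DESeq2 called 1.

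**Figure D4:**
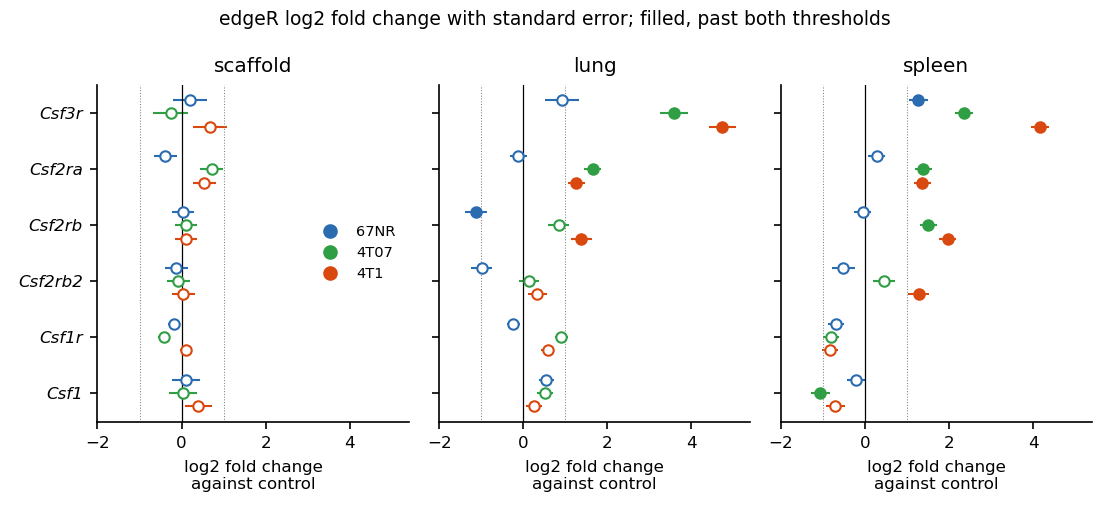
Log2 fold change (edgeR, with standard error) of 5 receptors and Csf1 against control in scaffold, lung and spleen of 67NR, 4T07 and 4T1 mice, on a shared x axis; filled points passed the adjusted p and the fold threshold, and dotted lines mark a fold change of 2. Csf3r in 4T1 mice reaches 4.73 in lung and 4.16 in spleen and 0.67 in scaffold, and Csf1r lies above 0 in 4T07 and 4T1 lungs and below 0 in the spleens.

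Whether a member responded differently in 2 tissues was tested with interaction terms over the 36 scaffold, lung and spleen libraries. The response of Csf3r to 4T1 exceeded that in scaffolds by 4.05 in lungs (SE 0.50, adjusted p = 1.75e-06) and by 3.50 in spleens (SE 0.50, adjusted p = 1.56e-05) on the log2 scale, and its response to 4T07 by 3.72 and 2.61. For Csf1r, spleen and lung differed, by -1.59 (SE 0.22, adjusted p = 2.03e-06) with 4T07 and by -1.40 (SE 0.22, adjusted p = 7.42e-05) with 4T1. Csf2rb responded more in spleens than in scaffolds, by 1.40 with 4T07 and 1.87 with 4T1.

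For 4T07 against control, 2, 3 and 2 members passed in lung minus scaffold, spleen minus scaffold and spleen minus lung, where 15.1%, 11.9% and 16.8% of 26665 genes passed. For 4T1 against control the counts were 1, 4 and 1, with 0.986%, 10.7% and 11.5% of genes. For 67NR against control no member passed by edgeR or by DESeq2 in any of the 3, with 2 members at an unadjusted p under 0.05 in each and 0.00375%, 0.0075% and 0.0263% of genes passing. For 4T1 against 4T07, both tools called 0 members in each of the 3, with 1, 1 and 0 members at an unadjusted p under 0.05 and 13.3%, 1.17% and 18.1% of genes passing. The response of Csf1r in lungs minus that in scaffolds was -0.72 there (SE 0.22, adjusted p = 0.0235), past the adjusted p and under the fold threshold.

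Downstream of the receptors, a list of 21 signalling genes was followed. In lungs, 7 rose and 1 fell in 4T07 against control (median log2 change 0.56, beside -0.01 over all genes), and 5 rose and 0 fell in 4T1 (median 0.52, beside 0.00). Of all genes, 29% and 4.61% passed in these comparisons, and the count with 4T07 lay near that share. In spleens, edgeR called 0 in 4T07 against control, with 5 at an unadjusted p under 0.05, and 2 rose in 4T1: Socs3, a feedback inhibitor of cytokine receptors that include CSF3R, by 2.80 (SE 0.27, adjusted p = 2.06e-06), and Pim1, a kinase gene induced by STAT factors, by 1.71 (adjusted p = 2.52e-06). These counts of the list in spleens were below the 18.6% and 19.9% of all genes that passed there, so that only the values of the single genes are described. Socs3 was also the gene of this list that rose in 4T1 against 4T07 in both tissues, by 1.88 (SE 0.26, adjusted p = 8.13e-04) in spleens and 1.45 (SE 0.19, adjusted p = 4.22e-06) in lungs, the comparison in which Csf3r passed too. In 4T1 against control lungs the largest increases were those of Fgr, a Src-family kinase of myeloid cells (2.14, adjusted p = 3.25e-06), and Socs3 (2.00, adjusted p = 5.91e-07). In scaffolds, Tyrobp, a signalling adaptor of myeloid cells, fell in 4T07 against control (-1.52, adjusted p = 6.16e-04), and edgeR called 0 genes of the list in 4T1 against control, with 4 at an unadjusted p under 0.05; the 1 of 21 in 4T07 was below the 7.44% of all genes.

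Of 10 myeloid transcription factors, 5 rose and 0 fell in 4T07 and in 4T1 against control spleens (median log2 changes 0.87 and 0.85, beside -0.09 and -0.10 over all genes). Of all genes, 18.6% and 19.9% passed there. Cebpe, which drives granule formation in neutrophil precursors, rose most in 4T07 (4.89, adjusted p = 2.33e-07) and in 4T1 spleens (3.89, adjusted p = 2.02e-06). Cebpd, another C/EBP factor, rose by 3.14 (adjusted p = 1.29e-06) in 4T1 spleens. In lungs, Cebpe was at or under 2 counts in every control and at least 173-fold higher in 4T07 and at least 16.5-fold higher in 4T1; it was lower in 4T1 than in 4T07 lungs by -3.43 (SE 0.26, adjusted p = 1.87e-09), opposite to Csf3r. Gfi1, which encodes a transcriptional repressor that acts in granulocyte precursors, rose by 4.96 (adjusted p = 5.71e-09) in 4T07 lungs. Spi1, which encodes PU.1, rose by 2.05 (adjusted p = 1.17e-05) in 4T1 lungs.

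Genes whose levels ran most alike with each member were ranked by Pearson r of log2(CPM + 1), over libraries that share groups and tissues, and are given as a description. For Csf3r over the 36 scaffold, lung and spleen libraries they were Cxcr2 (r = 0.926), a chemokine receptor of neutrophils that is among the mature markers above, Prok2 (0.915) and Cstdc4 (0.915). Over the 12 lungs alone they were Stfa2l1 (0.988), Lilr4b (0.987) and Cd300lf (0.986), and over the 12 spleens Larp1b (0.981), Rhd (0.978) and Mybl2 (0.976). For Csf2rb the nearest were Itgam (0.912), the integrin chain CD11b, Clec5a (0.900) and Pgd (0.899), and for Csf2ra Vsir (0.939), Frrs1 (0.926) and Mmp9 (0.918). Csf2rb2 ran with Fxyd5 (0.961), Litaf (0.956) and Ms4a6d (0.954), and Csf1r with Ccl24 (0.955), Lair1 (0.952) and Ly9 (0.950). Over the 9 tumors, Csf3 ran with Tnnt2 (0.998), Patj (0.998) and Wnt7b (0.994), and Csf1 with Patl1 (0.950), Ltbp1 (0.946) and Ube2d1 (0.943).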

How the data were processed

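RNA was measured with 3' tag libraries (QuantSeq FWD with unique molecular identifiers). The authors deposited whole-number counts per gene symbol without normalization; their processing notes name Trim Galore 0.5.0, STAR 2.6.0 and featureCounts. The genome build, annotation and any collapsing of identifiers are not given in the sources used here. The table has 55487 lines, and 120 that repeat a symbol were added up. The 8 members, the gene lists and the alternatives were chosen with earlier results of these data known. Levels and overlaps between groups are in CPM, without the TMM scaling used in the tests, so that narrow separations depend on the scaling. Floors cover counting error only, whereas SDs and SEs include the spread between libraries. Each tissue was fitted with all its groups in edgeR 4.0.16 (R 4.3.3): genes whose counts summed to over 10 in that tissue, TMM, quasi-likelihood F test, Benjamini-Hochberg adjustment, with the study's thresholds. The SE is the log2 change divided by the square root of F. DESeq2 1.42.0, other scalings and filters, fits of 2 groups, summed beta chain genes and leaving out each library were alternatives. Functions were tested on simulated data. Of the gene lists, members past the threshold with the 2 largest changes in a direction could be named, together with genes at 5 CPM or more on average that ran most alike. Promoter motifs in the receptors were added after the ligands' were planned. Members without a promoter entry are Csf3, Csf2rb and Csf1r.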

Additional observations from a re-analysis of the deposited data

Results flagged for a closer look

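In 13 cases, the response of a member to a tumor line differed between 2 tissues in the interaction test (edgeR, adjusted p under 0.1 and a log2 difference over 1). With 4T07 against control, the change in lungs exceeded that in scaffolds by 1.19 for Csf1r and by 3.72 for Csf3r. The change in spleens differed from that in scaffolds by -1.09 for Csf1, 1.40 for Csf2rb and 2.61 for Csf3r, and from that in lungs by -1.45 for Csf1 and -1.59 for Csf1r. With 4T1 against control, the change in lungs exceeded that in scaffolds by 4.05 for Csf3r. The change in spleens differed from that in scaffolds by -1.10 for Csf1, 1.87 for Csf2rb, 1.25 for Csf2rb2 and 3.50 for Csf3r, and from that in lungs by -1.40 for Csf1r. The difference of Csf1 between 4T1 spleens and scaffolds rested on replicate 2 of the 4T1 scaffolds, which held 148 CPM of Csf1: without it the value was -0.49 (adjusted p = 0.402).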

How the results depend on the processing

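No member changed direction under an alternative where it passed in either fit, over 4902 values, and 40 of the 51 calls passed under every alternative run. Of the values under alternatives, 30 lost a call and 32 gained one. A filter of at least 10 counts in every library left 1 member call in tumors instead of 4, because Csf3 is then not tested, and the fit without the 4T07 lungs, chosen after seeing the data, could give 8 of the 16 lung calls. Leaving out each library gave 4 to 5 calls in tumors, 1 in scaffolds, 15 to 18 in lungs, 16 to 18 in spleens and 11 to 16 between tissues; for the last, 67NR libraries were not left out. With library totals as the only scaling, the median change of all genes moved by up to -0.35, in 4T1 against 67NR spleens, and member calls in spleens were 13 higher and 3 lower instead of 16 and 1, and those between tissues 7 and 7 instead of 8 and 5. Without a library, Csf1 between spleens and scaffolds lost its call in 7 of 27 fits with 4T07 and in 6 of 27 with 4T1. Csf2 and Csf3 are limited by depth outside the tumors. No paired analysis was possible because the labels give no replicate numbers and do not tie tissues to a mouse.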
